A study of Mus musculus with 16 samples.

Results

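B cells from the spleen of mice without the 3'RR, the 3' regulatory region of the antibody heavy chain locus, were compared with wild-type B cells on the 8 arrays of slide 2, out of 16 arrays on 2 slides in the series. The 8 arrays were taken by their labels. They are deficient samples 1, 2, 3 and 4 and wild-type samples 1, 2, 3 and 5, and every list of 8 values below follows that order. In the deficient mice the IgH allele of 129 origin is the one knocked out, the background is BALBC and the strain entry is also BALBC, whereas 129 is the strain given for wild type. Genotype and strain therefore cannot be told apart, nor can genotype and place on the slide, since deficient samples filled positions 1 to 4 and wild-type samples positions 5 to 8. All cells were B220+ splenic B cells, purified with beads that carry an antibody to B220, and 0.2 µg of total RNA with a RIN of 9 was labelled with Cy3 for each array. The sources used here state neither age nor sex. Whether every array stands for a separate mouse is not labelled either, so p-values measure only how far these samples spread, part of which may be technical.

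The 3'RR consists of several enhancers that lie beyond the last constant gene of the heavy chain locus. It is known to act over long distances on transcription of the locus, above all on the germline transcripts that precede class switch recombination, in which a B cell exchanges the mu constant gene for one of the gamma, epsilon or alpha genes, and on the high heavy chain output of plasma cells. Resting splenic B cells are mainly follicular and marginal zone cells that carry IgM and IgD, with a few antibody-secreting cells among them.

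Signal is given as log2 of the processed intensity minus the 75th percentile of that array, so that 0 is the level of a fairly bright probe. A difference is deficient minus wild type on this log2 scale with its standard error (SE), n = 4 arrays per group, and every adjusted p is limma's with Benjamini-Hochberg adjustment. A gene or probe is said to rise or fall where that p is under 0.05. The 75th percentile was 596 on wild-type array 5 and between 890 and 990 on the other 7. Probes well above background numbered 29954 to 30757 on the deficient arrays and 31531 to 34174 on the wild-type arrays, with no overlap. The part of this gap in the genes that were dim in deficient cells was not tested. Correlation across probes, which are not independent replicates, was 0.988 to 0.994 among deficient arrays, 0.992 to 0.998 among wild-type arrays and 0.98 to 0.987 between genotypes. The first principal component held 49.1% of the variance and separated the genotypes, and the next held 19.3% and set deficient arrays 1 and 4 apart from deficient arrays 2 and 3. That split recurs in sex-linked genes. Ddx3y, a Y-linked RNA helicase, read -7.02, 2.30, 2.29 and -6.85 on the deficient arrays and 2.21, 2.23, 2.13 and 1.71 on the wild-type arrays, and Xist, the RNA that coats the inactive X chromosome, read 2.11, -5.69, -7.21 and 2.29 against -7.65, -7.28, -7.45 and -7.25. Deficient arrays 1 and 4 were thus dim for Ddx3y and bright for Xist, unlike the other 6. Without these 2 arrays, 1077 genes were higher and 1273 lower.

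Of 21755 genes measured on slide 2, 1545 rose (7.10%) and 1523 fell (7.00%) in deficient cells, and 267 of the former and 494 of the latter changed at least 2-fold. The 2-fold counts use the measured difference without a bound for dim probes. Heavy chain entries are counted among the genes. The median difference over all genes was 0.02. The balance of directions depended on the scaling. Of the genes called, 50.4% were higher with the 75th percentile, 70.4% when arrays were scaled by their median (2920 higher and 1229 lower, with the median of all genes at 0.10) and 39.9% with the authors' deposited table of log2 values (1172 and 1766). Leaving out wild-type array 1 left 720 higher and 940 lower genes, and without wild-type array 5 there were 1960 and 1519. Deficient arrays 1, 2 and 3 and wild-type arrays 2 and 3 each moved the higher count by over 1.5 times as well, to between 816 and 1018.

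The heavy chain locus changed in 1 direction: of 105 measured constant and variable segment probes, with mu and delta counted apart, 96 fell and none rose. The mu probe and some of these probes follow, all of which fell. They are given 5' to 3' with their mm9 positions on the minus strand of chromosome 12, as the array files list them. Capitals in the gamma 3 and gamma 1 probes mark a run of 13 bases that both share, and capitals in the variable segment probes V5-4 and V5-9 mark a shared run of 28 bases, so that transcripts of related segments could bind both.
mu (chr12:114659630-114659689): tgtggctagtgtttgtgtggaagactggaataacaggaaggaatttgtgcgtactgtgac
gamma 3 (chr12:114597942-114598001): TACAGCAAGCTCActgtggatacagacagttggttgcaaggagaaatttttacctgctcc
gamma 1 (chr12:114567263-114567322): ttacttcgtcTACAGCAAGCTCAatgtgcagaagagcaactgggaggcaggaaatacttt
gamma 2B (chr12:114544738-114544797): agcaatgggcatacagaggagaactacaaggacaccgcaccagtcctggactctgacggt
V5-4 (chr12:114835791-114835850): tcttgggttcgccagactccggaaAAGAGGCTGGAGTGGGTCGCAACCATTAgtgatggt
V5-9 (chr12:114900122-114900181): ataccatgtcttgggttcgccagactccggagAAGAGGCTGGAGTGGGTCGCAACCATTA
V1-4 (chr12:115725469-115725528): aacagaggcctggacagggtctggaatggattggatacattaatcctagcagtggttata

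Transcripts of the constant genes nearest the 3'RR were strongly reduced. Of 13 measured probes from Tmem121, which borders the locus on that side, to the delta constant gene, 12 fell and none rose, beside 6.51% of all probes that fell and 6.23% that rose. Their median difference was -4.33, and in these 12 the deficient and wild-type arrays did not overlap, beside 23.1% of all probes. Probes of 1 transcript share their source and are not independent. The gamma 2B probe, for an IgG heavy chain, read -4.03, -3.53, -3.44 and -2.65 in deficient cells and 3.24, 2.55, 2.90 and 3.04 in wild-type cells, and fell by 6.34 (SE 0.28, adjusted p 5.72e-06). Gamma 3 read -2.94, -2.29, -2.76 and -2.70 against 2.02, 1.97, 2.05 and 2.20 and fell by 4.73 (SE 0.14, adjusted p 8.35e-07). Every deficient array lay at least 4 units under every wild-type array for both of these genes.

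Epsilon, the heavy chain of IgE, kept a bright signal in deficient cells. Its probe read 1.74, 1.85, 2.08 and 2.16 against 6.41, 6.21, 6.27 and 6.55 and fell by 4.40 (SE 0.12, adjusted p 7.35e-07). Gamma 1 was the least reduced of the gamma genes. Its brighter probe read 3.67, 3.69, 3.60 and 3.47 against 6.11, 5.91, 5.96 and 6.25 and fell by 2.45 (SE 0.09, adjusted p 3.28e-06), and the other gamma 1 probe read 1.66, 1.93, 1.79 and 1.64 against 3.99, 3.88, 3.95 and 3.92 and fell by 2.18 (SE 0.08). All 4 deficient arrays were well above background for epsilon and both gamma 1 probes. The probe described as IgG2a fell by 5.68 (SE 0.20), and the gamma 2C probe, well above background on 1 of 4 deficient arrays, by 4.33 (SE 0.53, adjusted p 0.00155). A probe without a description that lies on the 3'RR side of epsilon read -4.59, -4.48, -4.44 and -4.26 against 1.57, 1.05, 1.41 and 1.26 and fell by 5.76 (SE 0.12, adjusted p 2.87e-07).

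At the 3'RR end of the constant region lie both probes with a J558 family heavy chain description, counted as constant region by their position alone. They were reduced by 4.31 and 4.21, and the first of them read -2.07, -2.08, -2.36 and -0.93 against 2.65, 2.11, 2.35 and 2.68. Deficient array 4 was the highest of the deficient arrays. The Igh-VJ558 probe beside them was not well above background on any deficient array and was at least 4.34-fold lower. The 1 constant region probe that did not pass, NAP115053-1, lies between gamma 3 and delta and differed by -0.29 (adjusted p 0.162). Such "at least" values compare the bright group's mean with a floor in the dim group, which on each array is the dim probe's own signal or the dimmest clearly detected signal, whichever is higher.

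Mu and delta, the constant genes of IgM and IgD at the far end of the constant region, parted from each other. The mu probe read 5.92, 5.75, 5.87 and 6.09 against 7.99, 7.63, 7.87 and 7.94 and fell by 1.95 (SE 0.10, adjusted p 1.64e-05), with no overlap. The delta probe, which the files name Ighv14-2 but place at delta, differed by 0.07 (adjusted p 0.789). The probes ENSMUST00000109715, which lies on the opposite strand in the delta region, and NP064466 differed by -0.09 and -0.14 and did not pass.

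Variable segments, which encode the antigen-binding end of the chain, were also reduced along the whole locus. Of 125 variable segment probes on the array 92 were measured, of which 84 fell and none rose, with a median of -2.56, or -2.48 with dim probes at their bound, and a range from -4.15 to 0.26. In 85 of them the groups did not overlap, beside 23.1% of all probes. By segment family, 35 of 38 V1 probes fell with a median of -2.71, and all 7 V5 probes, which lie at the end of the variable cluster near the constant genes, fell with a median of -1.43. The V2 (7 of 7), V8 (5 of 5), V3 (4 of 4), V9 (4 of 4), V14 (3 of 3) and V7 (3 of 3) probes had medians from -2.63 to -1.90, and both V6 probes a median of -3.46. The 8 probes that did not pass were 3 of the V1 family and 5 of the 15 without a family in their description. In 39 of the 92 probes (42.4%) a run of 25 or more bases was shared with another variable probe, so the probes do not measure separate segments only.

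**Figure D1:**
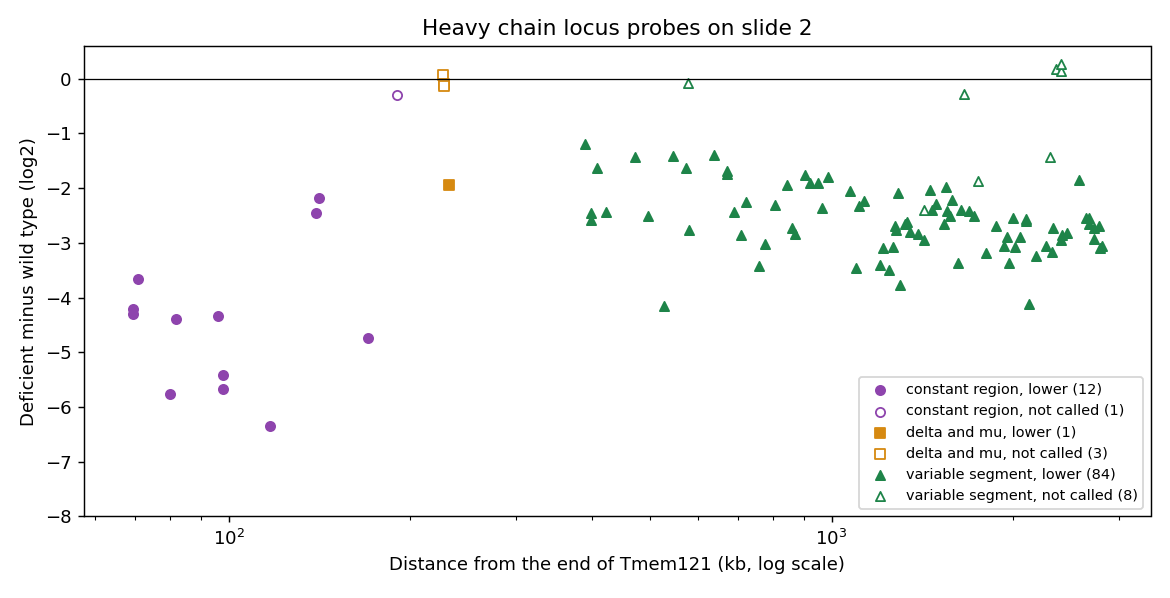
Difference between deficient and wild-type cells (log2) of each measured heavy chain probe on slide 2 against its distance in kilobases from the end of Tmem121, on a log axis, with filled symbols for probes that fell. Constant region probes span -6.34 to -0.29, mu lies at -1.95 beside delta near 0, and most variable segment probes lie between -1 and -4.

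Genes next to the locus were called in both directions. Within 5 Mb on the Tmem121 side, 5 of 112 genes rose and 4 fell (8.04% called, beside 14.1% of all genes), and on the far side, to the chromosome end, none of 21 rose and 1 fell. Tmem121 itself differed by 0.00 (adjusted p 0.998). Of 24 measured genes in a list of neighbours, 4 fell (16.7%, beside 7.00% of all genes) and 1 rose (4.17%, beside 7.10%). Adam6a and Adam6b, sperm surface protein genes that sit among the variable segments, fell by 1.48 (SE 0.30, adjusted p 0.0159) and 0.84 (SE 0.12, adjusted p 0.00316), Crip2, a LIM domain protein gene, by 0.76 (SE 0.12) and Adssl1, an adenylosuccinate synthase gene, by 0.57 (SE 0.10). Btbd6, named after its value was seen, rose by 0.31. Adam6a was well above background on 1 of 4 deficient arrays, and its call was lost without wild-type array 1 (adjusted p 0.0537).

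Light chains come from other chromosomes and pair with the heavy chain in the antibody. None of 87 kappa variable probes rose and 33 fell, beside 6.23% and 6.51% of all probes, with a median of -0.62 and a range from -1.70 to 0.55 beside -2.56 for the heavy chain segments. On slide 1 the differences of the same kappa variable probes ranged from -0.25 to 2.38, and most were positive. Whether these probes share runs of bases was not checked. The probe at the kappa constant gene differed by -0.26 (adjusted p 0.175) and did not pass, while the other probe with a kappa constant description, which the files name Igkv4-53 and place among the variable segments, fell by 1.11. None of 3 lambda constant probes passed (median -0.35). Igkc differed by -0.23 (adjusted p 0.354). Iglv1, a lambda variable gene, read 6.51, 6.40, 6.80 and 7.06 against 7.39, 7.34, 7.31 and 7.71 and fell by 0.75 (SE 0.16, adjusted p 0.0194), with the call lost without deficient array 1 or wild-type array 1 (adjusted p 0.0502 to 0.0534). Vpreb1 and Vpreb3, parts of the surrogate light chain system of developing B cells, fell by 0.59 (SE 0.10, adjusted p 0.0122; value missing on wild-type array 2) and 0.80 (SE 0.16, adjusted p 0.0134).

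Outside the locus, genes named for a large measured increase were Mnda, a HIN-200 family gene now named Ifi211, the globins, Mpzl2 and Rbbp9. Mnda read 1.27, 1.55, 1.64 and 1.45 against -5.82, -4.89, -5.38 and -6.05, a difference of 7.02 (SE 0.24, adjusted p 2.18e-06), and 1 of the 4 wild-type arrays was well above background, so the wild-type level rests mostly on background signal. Mpzl2, a cell adhesion protein of the immunoglobulin superfamily, read 2.18, 1.29, 1.32 and 1.28 against -3.98, -5.11, -4.26 and -4.08 and rose by 5.87 (SE 0.30, adjusted p 1.03e-05). In both genes all 4 deficient arrays lay more than 5 units above all wild-type arrays. Rbbp9, a serine hydrolase, was at least 19.3-fold higher (SE 0.37 on a difference of 5.91), but its other measured probe fell by 0.94, so its probes disagree. Etohi1, a zinc finger gene now named Zfp971, was at least 7.04-fold higher, Cd5l, a secreted protein of macrophages, at least 8.72-fold higher and Sema5a, a semaphorin, at least 2.23-fold higher. Mtap7, a microtubule-associated protein, rose by 3.75 (SE 0.29, adjusted p 0.00012) and its other probe rose too, although 2 of its 4 wild-type values were not well above background.

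Genes named for a large measured decrease included Gchfr, Rab4a, Gprc5b and Hspb2, some of them with deficient arrays not well above background. Gchfr, a regulator of GTP cyclohydrolase, read -3.91, -3.82, -4.13 and -3.65 against -0.09, -0.29, -0.23 and 0.18 and fell by 3.77 (SE 0.13, adjusted p 2.18e-06), with all 8 arrays well above background. Rab4a, a small GTPase of endosome recycling, read -4.23, -5.85, -4.87 and -4.80 against -0.47, -0.62, -0.54 and -0.68 and fell by 4.36 (SE 0.30, adjusted p 5.5e-05), with 2 of 4 deficient arrays well above background. Gprc5b, an orphan receptor, read -7.30, -7.15, -5.99 and -3.34 against -1.43, -1.57, -1.62 and -1.40 and fell by 4.44 (SE 0.79, adjusted p 0.00944), with 1 of 4 deficient arrays well above background. The wild-type arrays were tight for all 3 genes, and deficient array 4 was the highest deficient array for Gprc5b. The small heat shock protein gene Hspb2 was at least 4.82-fold lower, the ion exchanger gene Slc24a2 at least 7.94-fold, Vsig8 at least 6.50-fold, the histone gene Hist1h2bq at least 2.42-fold, D0H4S114 (now Nrep) at least 2.16-fold and Tex12 at least 1.79-fold. Olfm1, a secreted olfactomedin, fell by 2.74 (SE 0.30, adjusted p 0.000878) together with its 3 other probes, Depdc7 by 3.33 (SE 0.45) and Lyplal1 by 2.96 (SE 0.15), the last pair with 1 of 4 deficient arrays well above background each.

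**Figure D2:**
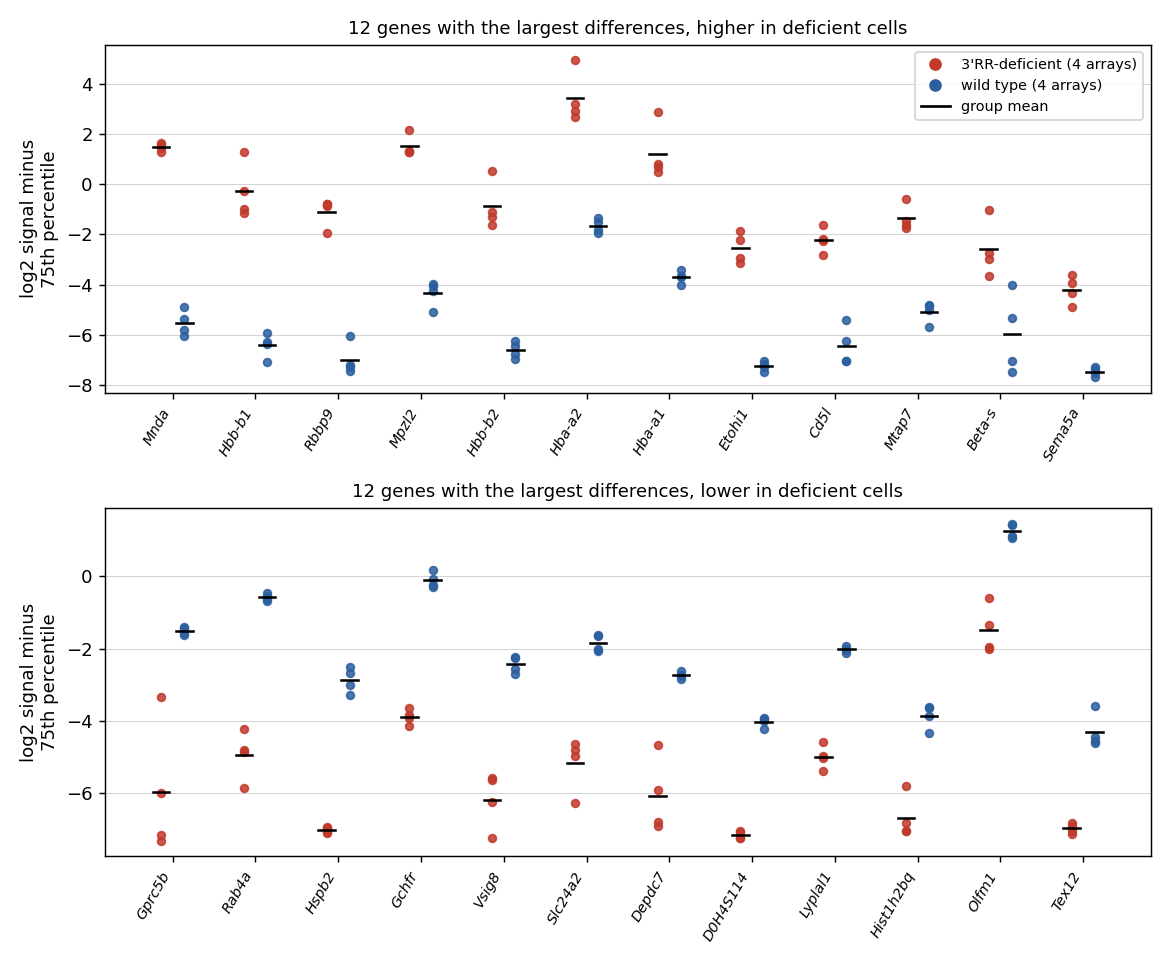
Signal (log2 minus the 75th percentile) of the 12 named genes with the largest measured difference upward and the 12 downward on slide 2, with a point per array and a bar at each group mean. The groups do not overlap in any of them, a condition of their choice, and the wild-type arrays of Mnda lie between -6.05 and -4.89.

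The 5 adult globins measured rose, the embryonic globins Hbb-y and Hbb-bh1 both differed by -0.23 and did not pass, and other erythroid genes were called in both directions. Hba-a2, an alpha globin of red blood cells, read 3.18, 2.91, 2.69 and 4.93 against -1.81, -1.94, -1.35 and -1.50 and rose by 5.08 (SE 0.46, adjusted p 0.000295), and Hba-a1 rose by 4.93 (SE 0.49, adjusted p 0.000499). The beta globins Hbb-b1 and Hbb-b2 exceeded wild type by at least 33.6-fold and 22.4-fold, and Beta-s rose by 3.36 (SE 0.85, adjusted p 0.0358). Deficient array 4 was the highest for each of the 5 globins, and every deficient array lay above every wild-type array. The call of Beta-s was lost without any 1 of deficient arrays 1, 2 and 4 and wild-type arrays 1, 3 and 5 (adjusted p 0.0658 to 0.0921). Of 16 erythroid markers 10 were measured, and besides the globins Car2, a carbonic anhydrase, rose by 1.14, Tfrc, the transferrin receptor, by 0.33, and Epor, the erythropoietin receptor, fell by 0.29. Slc4a1, the red cell anion exchanger, differed by -0.29 and Klf1, an erythroid transcription factor, by -0.15, and neither passed, while Alas2, Ahsp, Gata1 and Rhag were not measured because fewer than 4 arrays were well above background. The list of erythroid markers holds neither Hba-a2, the brightest of the 5 globins, nor Beta-s. Its summed level was 70.6 to 93.3 in deficient and 72.0 to 93.9 in wild-type arrays, so it overlapped. That sum also holds the members other than globins and does not measure the globins as a group. The part of other blood cells in the globin result was not tested. The call of Car2 was lost without deficient array 3 or wild-type array 1, 3 or 5 (adjusted p 0.0526 to 0.0778).

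**Figure D3:**
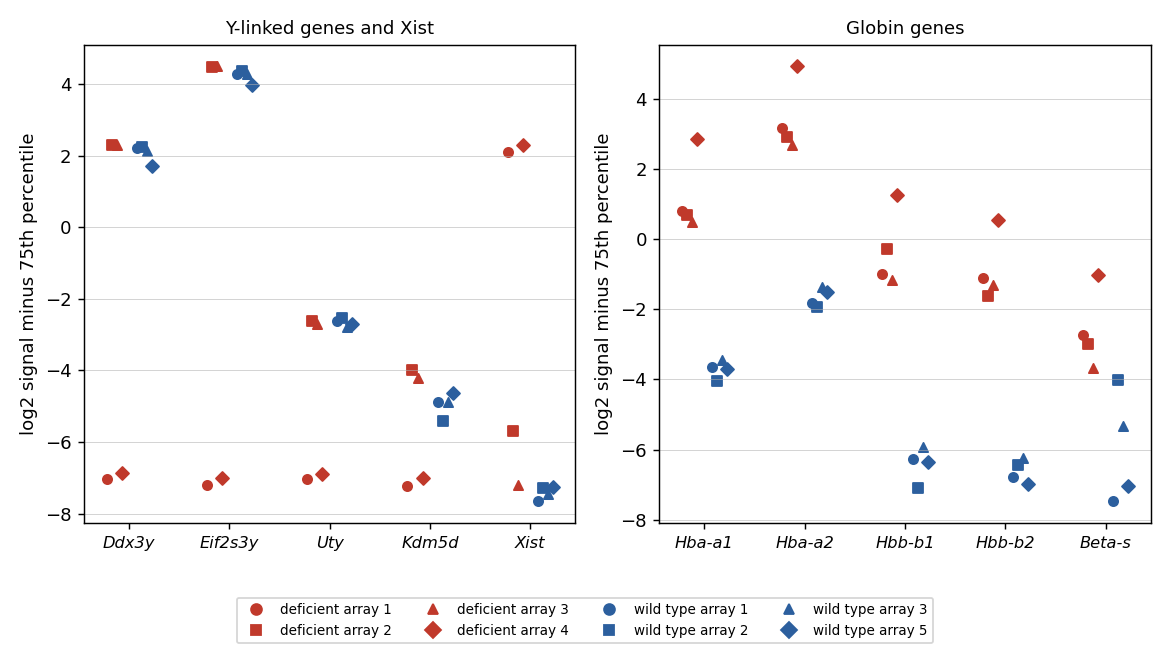
Signal of each array (log2 minus the 75th percentile) for 4 Y-linked genes and Xist on the left and for 5 globin probes on the right, with a symbol for each array. Deficient arrays 1 and 4 are dim for the Y-linked genes and bright for Xist, and deficient array 4 is the highest in each globin.

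Markers of the selected cells were present. All 12 B cell markers were measured, among them Cd79a and Ms4a1, and their summed level was 1222 to 1294 in deficient and 1073 to 1216 in wild-type arrays. Pax5 and Fcer2a were the members that rose (16.7%, beside 7.10% of all genes), and none fell. These 2 became 0 without wild-type array 1 and 3 without wild-type array 5. T cell markers summed to 78.4 to 125 against 75.1 to 111, granulocyte markers to 146 to 167 against 136 to 156, and NK cell markers to 2.82 to 3.67 against 3.02 to 4.21, with overlap in each. In such bulk samples, fewer cells of a type and less RNA per cell cannot be told apart.

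Interferon response genes, which are switched on through type I and type II interferon receptors, were called in the upward direction only. Of 54 measured members 22 rose (40.7%, beside 7.10% of all genes) and none fell, with a median of 0.41 and 53 of 54 differences above 0. Oas1a, an oligoadenylate synthetase activated by double-stranded RNA, read 4.83, 5.42, 5.71 and 4.69 against 2.25, 2.90, 3.15 and 2.86 and rose by 2.37 (SE 0.27, adjusted p 0.00102). Ifi44 rose by 2.45 (SE 0.60, adjusted p 0.0334) and Usp18, a protease that removes ISG15 from proteins, by 1.93 (SE 0.42, adjusted p 0.0215). Deficient arrays 2 and 3 were the highest for Oas1a, Ifi44 and Usp18, and the groups did not overlap. Ifi203, another HIN-200 gene, rose by 1.22 (SE 0.11, adjusted p 0.000253), the GTPases Igtp, Gbp2, Irgm1 and Gbp3 by 1.11, 1.08, 0.48 and 0.32, and Oas3 by 1.49. Of the regulators, named after their values were seen, Irf7 rose by 0.70 and Irf9 by 0.43, whereas Stat2 differed by -0.01. The classic targets Isg15, Ifit1 and Mx1 differed by 0.26, 0.38 and 0.31 and did not pass, and Oasl2 differed by 3.00 (adjusted p 0.0554). The count of 22 became 10 without wild-type array 1, 12 without deficient array 2, 13 without deficient array 3 or wild-type array 3, and 23 without deficient array 4. The call of Ifi44 was lost without deficient array 2 or any 1 wild-type array (adjusted p 0.0597 to 0.0918), and that of Usp18 without deficient array 2 (0.0566).

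The promoters of several of these genes hold the motif GAAA, any 2 bases and GAAA again, the core of the element that interferon regulatory factors are known to bind, searched on both strands (TTTC, any 2 bases, TTTC) in 300 bases around the start from RefSeq (GRCm38.p6). The stretches below run from 20 bases before the first match to the last base before the start and are shown because these genes rose together. Capitals mark the matches, overlapping ones joined.
Mnda, now Ifi211 (chr1:173913047-173913103, minus strand): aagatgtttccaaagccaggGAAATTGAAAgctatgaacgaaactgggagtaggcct
Ifi203 (chr1:173942493-173942547, minus strand): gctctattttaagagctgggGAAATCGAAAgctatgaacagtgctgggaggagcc
Oas1a (chr5:120907526-120907565, minus strand): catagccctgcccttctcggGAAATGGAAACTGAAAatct
Igtp (chr11:58199502-58199555, plus strand): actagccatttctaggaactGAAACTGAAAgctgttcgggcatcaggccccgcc
Irgm1 (chr11:48871421-48871470, minus strand): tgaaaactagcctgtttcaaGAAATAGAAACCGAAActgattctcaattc
Mnda and Ifi203, neighbours on chromosome 1, share a run of 13 bases that starts in the second repeat of the match. The motif was found in 8 of the 15 matched members that rose (53.3%) and in 11 of 21 matched members that did not (52.4%), beside 1079 of 27025 genes (3.99%) and 1131 of 32851 promoters (3.44%) in the table. The share was thus close in members that rose and in those that did not. A match is a description of the letters and not a measured site.

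MHC class I genes, which display peptides to cytotoxic T cells and respond to interferon, gave 4 of 27 members higher and none lower. The higher share was 14.8%, beside 7.10% of all genes, and the median was 0.15. H2-T9, which encodes a non-classical class I molecule, rose by 0.74 (SE 0.18), Nlrc5, the transactivator of class I genes, by 0.64 (SE 0.08, adjusted p 0.00195), Psmb8, an immunoproteasome subunit, by 0.27 (SE 0.07) and Erap1, a peptide-trimming enzyme, by 0.26 (SE 0.06). The count was 1 without deficient array 3 or wild-type array 2, 2 without deficient array 2 or wild-type array 1 or 3, and 7 with scaling by the median. Nlrc5 alone of the 4 kept its call without any 1 array. The other calls were lost at adjusted p 0.0517 to 0.0864 for H2-T9 (without deficient array 2 or 3 or wild-type array 1, 2 or 5), 0.0566 to 0.0977 for Psmb8 (deficient 2, 3 or 4 or wild-type 1, 2 or 3) and 0.0515 to 0.0657 for Erap1 (deficient 1 or 3 or wild-type 2 or 3). MHC class II genes, which display peptides to helper T cells, had none of 16 called by limma, 2 at an unadjusted p under 0.05 and a median of -0.02. Of them 1 was higher with scaling by the median or with array weights, and 1 lower in the authors' deposited table.

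The plasma cell programme turns a B cell into an antibody-secreting cell. Of its 24 measured members 10 fell (41.7%, beside 7.00% of all genes) and none rose, with a median of -0.37 and 21 of 24 differences below 0. Prdm1, which encodes Blimp-1, the regulator of plasma cell fate, read 0.30, -0.32, -0.08 and 0.79 against 1.86, 1.23, 1.54 and 1.47 and fell by 1.35 (SE 0.24, adjusted p 0.00947). Sdc1, the surface proteoglycan CD138 of plasma cells, read -2.55, -2.94, -2.53 and -2.16 against -1.12, -1.60, -0.57 and -1.23 and fell by 1.42 (SE 0.23, adjusted p 0.00683). The groups did not overlap for either gene. Tnfrsf17, the BCMA receptor for survival signals, was well above background on the wild-type arrays alone and at least 2.58-fold lower (adjusted p 0.0105), and Fkbp11, a chaperone of the secretory pathway, fell by 1.55 (SE 0.34, adjusted p 0.021), with 2 of 4 deficient arrays well above background. Xbp1, the transcription factor of the secretory programme, differed by -0.20 (adjusted p 0.242), and Igj, the joining chain of IgM and IgA, by -1.09 (adjusted p 0.0553). A shorter list of 8 plasma cell markers had 5 lower members and a summed level of 284 to 337 in deficient against 363 to 463 in wild-type arrays, with no overlap, and its part in the heavy chain result was not tested. Without any 1 array 7 to 11 members of the longer list fell. The call of Fkbp11 was lost without deficient array 1 or wild-type array 1 or 3 (adjusted p 0.0504 to 0.0663).

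Transitional and immature B cells are the stages that arrive from bone marrow. Of 24 members of their list 19 were measured, with a median of -0.59. Of these, 10 fell (52.6%, beside 7.00% of all genes) and 1 rose (5.26%, beside 7.10%). Tcf7, a transcription factor of the TCF/LEF family, read -3.39, -3.42, -3.12 and -3.14 against -2.11, -2.26, -2.26 and -2.20 and fell by 1.06 (SE 0.09, adjusted p 0.000215). Its relative Lef1 read 2.63, 2.14, 2.76 and 2.07 against 3.53, 3.09, 3.48 and 3.38 and fell by 0.97 (SE 0.18, adjusted p 0.0107). Neither gene had overlapping groups. Sox4, an early B lineage factor, fell by 1.55 (SE 0.35, adjusted p 0.0245) together with both of its other probes, and Cecr2, a chromatin remodelling protein, by 1.39 (SE 0.20, adjusted p 0.00359). Ptk2, the focal adhesion kinase and the 1 member that rose, gained 0.24. Cd93 and Cd24a, surface proteins used to sort these cells, differed by -0.24 (adjusted p 0.313) and -0.59 (adjusted p 0.111) and did not pass. The count stayed between 8 and 11 without any 1 array. The call of Sox4 was lost without deficient array 1 or 2 or wild-type array 1, 3 or 5 (adjusted p 0.0517 to 0.0727).

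Follicular B cell genes, of the recirculating majority, gave 8 higher and 2 lower of 19 members with a median of 0.11. These shares are 42.1% and 10.5%, beside 7.10% and 7.00% of all genes. Fcer2a, the low-affinity IgE receptor CD23, read 5.63, 5.28, 5.12 and 4.07 against 3.53, 3.69, 3.64 and 3.41 and rose by 1.46 (SE 0.30, adjusted p 0.0164). Fcrl1, an activating Fc receptor-like protein of B cells, read 1.03, 0.86, 1.05 and 1.05 against -0.67, -0.54, -0.83 and -1.04 and rose by 1.77 (SE 0.11, adjusted p 3.9e-05). Deficient array 4 was the lowest deficient array for Fcer2a, still above every wild-type array. Neurl3, a ubiquitin ligase, rose by 0.79 with overlapping groups (SE 0.21, adjusted p 0.0443), and Vpreb3 was 1 of the 2 lower members, with Cxcr4, a chemokine receptor that fell by 0.62. Cxcr5, the receptor that guides cells into follicles, rose by 0.48 and was named after its value was seen. The 8 became 2 without wild-type array 1, 3 without deficient array 2, and 4 or 5 without any other 1 array. Fcer2a lost its call without wild-type array 1 (adjusted p 0.0515), and Neurl3 without deficient array 2, 3 or 4 or wild-type array 1, 3 or 5 (0.071 to 0.119).

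Marginal zone B cell genes, of the cells that answer blood-borne antigen, gave 2 higher and 6 lower of 21 members with a median of -0.06. These shares are 9.52% and 28.6%, beside 7.10% and 7.00% of all genes. Cd36, a scavenger receptor, fell by 1.36 (SE 0.34, adjusted p 0.0336), Asb2, a ubiquitin ligase subunit, by 0.84 (SE 0.15, adjusted p 0.00887), and the list also holds Sox4. Plac8 read 3.72, 4.18, 4.20 and 4.36 against 2.61, 3.04, 2.96 and 3.11 and rose by 1.19 (SE 0.16, adjusted p 0.00266). The 6 became 3 without wild-type array 1 or 3. The call of Cd36 was lost without deficient array 1 or 3 or any 1 wild-type array (adjusted p 0.0538 to 0.0927).

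Fc receptors, which bind the constant part of antibodies, gave 5 of 13 members higher (38.5%, beside 7.10% of all genes) and none lower. Their median was 0.40, with every difference above 0. Fcgr2b, the inhibitory IgG receptor that dampens B cell receptor signals, read 2.25, 2.43, 2.23 and 2.27 against -0.46, -0.38, -0.55 and -0.19 and rose by 2.69 (SE 0.09, adjusted p 2.18e-06). Fcrla, an intracellular Fc receptor-like protein of B cells, read 0.47, 0.94, 0.80 and 1.05 against -1.78, -1.25, -1.49 and -2.22 and rose by 2.50 (SE 0.22, adjusted p 0.000222). Fcgr3, an activating IgG receptor of myeloid and NK cells, read -1.06, -0.92, -0.93 and -0.94 against -2.87, -2.74, -2.99 and -2.59 and rose by 1.84 (SE 0.09, adjusted p 1.06e-05). The deficient arrays were tight for all 3 genes and lay clear of the wild-type arrays. Fcrl1 and Fcer2a, given above, were the other members that rose. Of 19 macrophage markers 9 were measured, of which Lyz1, a lysozyme, rose by 1.19 and Mpeg1, a pore-forming protein, by 0.54, and Emr1 and Csf1r differed by 0.16 and -0.05 and did not pass. The summed level of these markers was 25.1 to 28.4 in deficient and 20.25 to 22.3 in wild-type arrays, with no overlap, and their part in the Fc receptor result was not tested.

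Among genes of the B cell receptor and its signalling, 2 rose and 2 fell of 38 (5.26% each, beside 7.10% and 7.00% of all genes), with a median of 0.11. Besides Fcgr2b, Bank1, an adaptor of receptor signalling, rose by 0.58 (SE 0.15, adjusted p 0.0351). Rasgrp3, an exchange factor that activates Ras, read 2.49, 2.78, 2.79 and 2.39 against 3.81, 3.57, 3.59 and 3.71 and fell by 1.06 (SE 0.11, adjusted p 0.000714), and Sos1, another Ras exchange factor, fell by 0.60 (SE 0.14, adjusted p 0.0294). With scaling by the median 9 rose and 1 fell. The calls of Bank1 and Sos1 were each lost without any 1 of 6 arrays (adjusted p 0.0628 to 0.0849 and 0.0559 to 0.0855), wild-type arrays 1, 2 and 3 and deficient arrays 2 and 4 for both, with wild-type array 5 for Bank1 and deficient array 3 for Sos1.

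B lineage transcription factors gave 5 higher and 3 lower of 32, with a median of 0.10. These shares are 15.6% and 9.38%, beside 7.10% and 7.00% of all genes. Bach2, a repressor of plasma cell fate, read 0.78, 0.93, 0.93 and 0.70 against 0.08, 0.28, 0.17 and -0.03 and rose by 0.71 (SE 0.09, adjusted p 0.00195), although its other probe differed by 0.00. Foxp1 rose by 0.64 (SE 0.14, adjusted p 0.0183) and Id3, an inhibitor of E proteins, by 0.51 (SE 0.11, adjusted p 0.0214). Named after their values were seen, Pax5, the B cell identity factor, rose by 0.25 and Ikzf1, the Ikaros gene, by 0.32, while Irf4, needed for plasma cells, fell by 0.33 and Ets1 by 0.29. Myb, a factor of progenitor cells, fell by 0.89 (SE 0.20, adjusted p 0.0218). Without wild-type array 1 the 5 higher members became 2 and the 3 lower became 0, without wild-type array 5 there were 8 higher, and 10 rose with scaling by the median. Without deficient array 2 or wild-type array 1 Foxp1 missed the threshold (adjusted p 0.0507 to 0.0597), as did Id3 without deficient array 4 or wild-type array 1 or 3 (0.051 to 0.0682) and Myb without deficient array 1 or wild-type array 1 or 2 (0.0546 to 0.0574).

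Immediate early genes, induced within minutes of receptor signals, gave 9 lower and 2 higher of 33 members, with a median of -0.13. These shares are 27.3% and 6.06%, beside 7.00% and 7.10% of all genes. Egr1, a zinc finger transcription factor, read 1.69, 2.00, 2.13 and 1.84 against 3.05, 2.70, 2.67 and 2.87 and fell by 0.91 (SE 0.12, adjusted p 0.00261). Dusp5, a phosphatase of MAP kinases, fell by 0.78 (SE 0.12, adjusted p 0.00471) and Fos, an AP-1 subunit, by 1.11 (SE 0.30, adjusted p 0.0477). The orphan receptor Nr4a2 went the other way, with -1.56, -1.82, -1.84 and -2.0 against -2.52, -2.74, -2.63 and -2.49 and a rise of 0.79 (SE 0.10, adjusted p 0.00236). Nr4a1, Myc and Cd69 differed by -0.19, 0.10 and -0.05 and did not pass. Of the 9 lower members 4 were called without wild-type array 1 and 5 or 6 without any other 1 array, and 4 without deficient arrays 1 and 4 together. The call of Fos was lost without any 1 array other than deficient array 3 (adjusted p 0.0532 to 0.108).

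**Figure D4:**
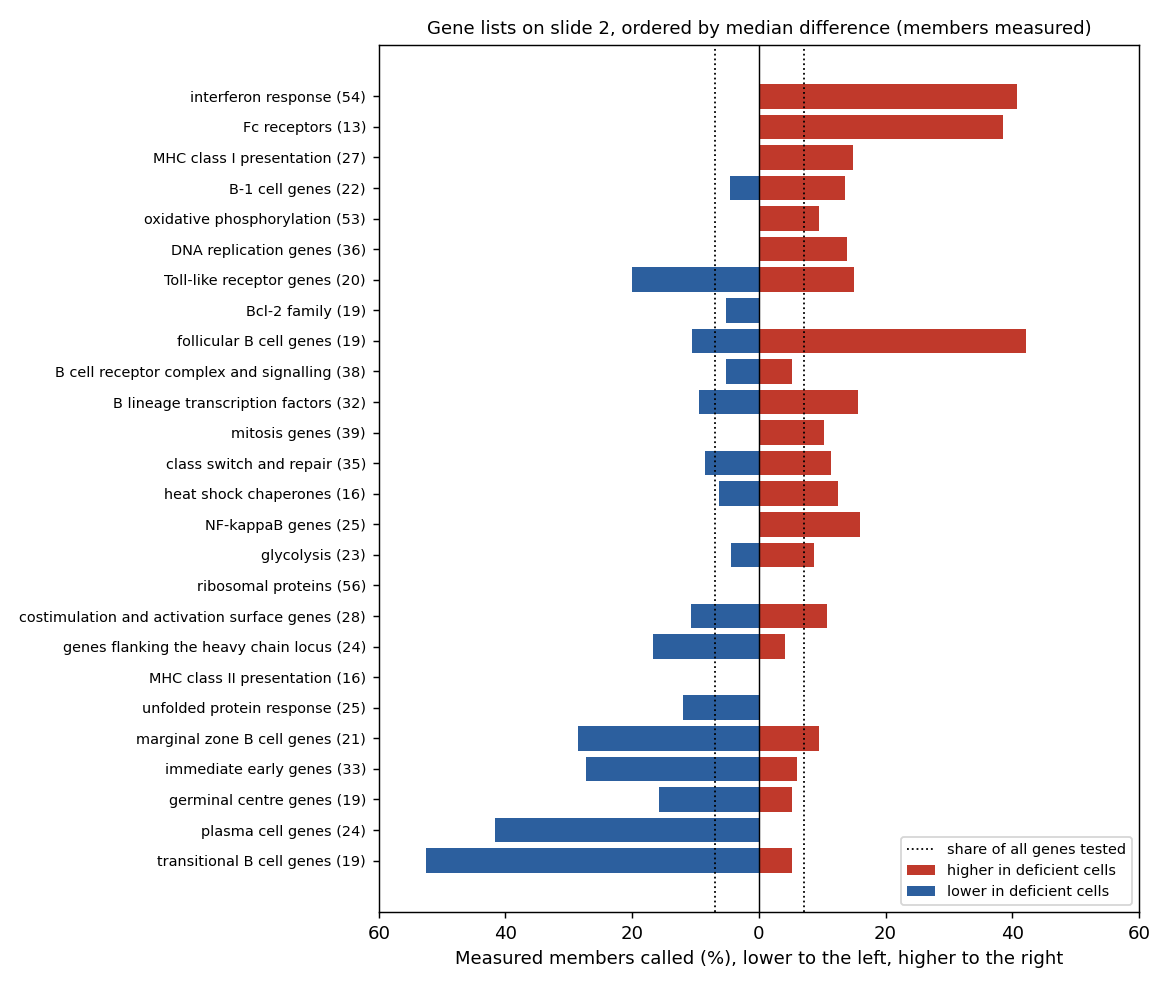
Share of the measured members that rose (to the right) or fell (to the left) on slide 2, in percent, for each pathway or B cell list with at least 10 measured members, with the lists ordered by median difference and dotted lines at the share of all genes, 7.10% and 7.00%. Interferon response (40.7%), follicular B cell and Fc receptor lists lie farthest to the right of the lists drawn, and transitional (52.6%) and plasma cell gene lists (41.7%) farthest to the left.

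Set against slide 1, which holds 4 deficient and 4 wild-type arrays of the same description, the slide 2 differences were shared in part. The comparison takes all 16 arrays as separate samples, although the series text speaks of only 4 mice a genotype and the labels use wild-type numbers 2 and 5 on both slides. Under these numbers Ddx3y read 2.23 and 1.71 on slide 2 and -6.80 and -6.42 on slide 1. Of the 3068 genes called on slide 2, 1885 had the same sign on slide 1, 441 were called in the same direction there and 106 in the opposite one. The share of all genes with the same sign on both slides was not counted, so the 1885 have no background beside them. The 441 are 14.4% of the genes called on slide 2 and 20.1% of the 2196 called on slide 1 over the same probes (10.1%, with 3.99% higher and 6.10% lower). The test of the difference between slides called 3570 genes (16.4%), and 1088 genes were called both there and on slide 2. Mpzl2 (5.87 against -0.37, adjusted p for the difference 6e-07), Hba-a2 (5.08 against -0.37, adjusted p 0.000716), Hbb-b1 and Hbb-b2 had the most positive differences outside the heavy chain locus. Mpzl2 was not well above background on any slide 1 array, so its slide 1 value compares background signals. On slide 1 Hba-a1, Hbb-b1 and Hbb-b2 stood at -0.47, -0.74 and -1.50 and were not called. Both genotypes were brighter for globins there. For Hba-a1, Hba-a2, Hbb-b1, Hbb-b2 and Beta-s every slide 1 array lay above every slide 2 array. Hbb-b1 read 4.354 to 6.344 in deficient and 4.444 to 6.896 in wild-type arrays on slide 1. On slide 2 it read -1.15 to 1.28 in deficient and -7.08 to -5.93 in wild-type arrays. The reason for this gap between slides was not tested. Aldh1a2, an enzyme of retinoic acid synthesis, read -3.32, -3.02, -3.71 and -3.64 against -1.35, -0.95, -1.32 and -1.28 on slide 2 and fell by 2.20, while on slide 1 it rose by 2.58 (adjusted p for the difference 0.000714). Evc (-1.33 against 2.82, with overlapping groups and 1 of 4 deficient arrays well above background on slide 2) followed. Tnfrsf17 and D0H4S114 were at least 2.58-fold and 2.16-fold lower on slide 2, where no deficient array was well above background, and stood at 2.04 and 1.19 on slide 1. The slide 2 call of Evc was lost without any 1 array other than deficient array 4 (adjusted p 0.0636 to 0.1).

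At the heavy chain locus some probes, given next, differed between slides. The other constant region probes, gamma 2B and epsilon among them, did not pass the test of the difference between slides. Gamma 1 fell by 2.45 on slide 2, and its slide 1 difference was -8.13 (adjusted p for the difference between slides 0.000575). For gamma 3 the values were -4.73 and -6.12 (0.00933), for mu -1.95 and -0.54 (0.00841), for delta 0.07 and -1.53 (0.000494), and for the undescribed probe beside epsilon -5.76 and -0.92 (7.53e-05). Mu was therefore the more reduced on slide 2, and gamma 1, gamma 3 and delta the less reduced. Beside the 16.4% of all genes called by that test, 12 of the 24 plasma cell genes differed between slides, with medians of -0.37 on slide 2 and 0.41 on slide 1. Of the 54 interferon genes 12 did, with medians of 0.41 and 1.00, and of the 33 immediate early genes 13, with medians of -0.13 and -0.85. The slide 1 values of Fcgr2b, Fcrla and Fcgr3 were -0.03, 0.10 and -0.56, with adjusted p for the difference of 1.38e-07, 0.000102 and 1.38e-07.

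**Figure D5:**
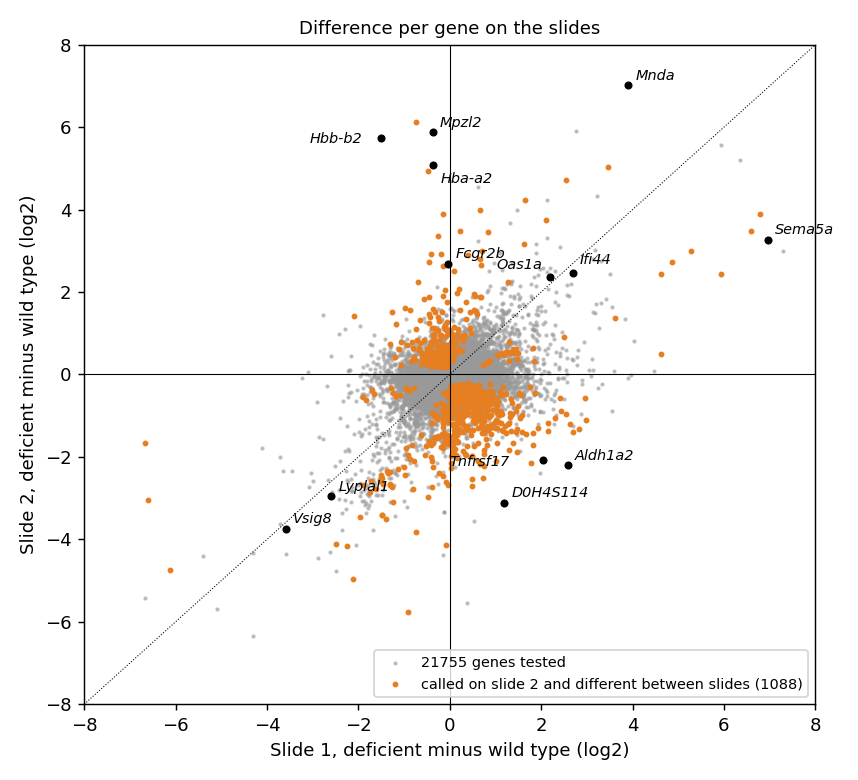
Difference between deficient and wild-type cells (log2) of each of 21755 genes on slide 2 against that on slide 1, with genes called on slide 2 whose difference also differed between slides (1088) in orange. Mpzl2, Hba-a2 and Hbb-b2 lie high on slide 2 and near or under 0 on slide 1, and Aldh1a2, Tnfrsf17 and D0H4S114 lie below 0 on slide 2 and above 0 on slide 1.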

How the data were processed

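Arrays were 1-colour Agilent mouse arrays. Per the file headers, the deposited intensity was extracted with Feature Extraction 10.7.3.1 (mm9), background-subtracted and detrended within each array and not scaled between arrays. The authors also deposited a table of log2 values made by steps that the sources do not give (slide 2 column medians 6.49 to 6.50). The submitters' processing notes name limma, with no version. Control spots (3671 of 62976) were left out, log2 intensity minus the array's 75th percentile was taken, spots of a probe were averaged, and 31274 of 55681 probes were kept, those well above background on 4 or more of the 8 arrays. Each gene was represented by its brightest probe. A gene here is a separate name in the array files, and some names are accessions, probe names or coordinate intervals. The 8 arrays were fitted alone with limma 3.58.1 in R 4.3.3 and Benjamini-Hochberg adjustment, and the fit was tested on simulated data. The comparison of slides used all 16 arrays. Precision is limited by the number of arrays. Values were missing on at least 1 array for 40 genes, which were fitted on the others.

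Named genes are, in each direction, the 12 with the largest difference among called genes outside the heavy chain locus with non-overlapping groups and an official symbol, up to 4 called members per list by size (by p where fewer pass), 4 genes each way of the slide comparison, every constant region probe, Y-linked genes and Xist, and called interferon genes whose promoter holds the motif. The members and lists were chosen with earlier results of these data known. RefSeq GRCm38.p6 gave current symbols (27428 probes matched, 2788 with another symbol) and promoters. Alternatives were other scalings, background corrections, filters, array weights, a replicate block, the authors' table, all 16 arrays, and leaving out arrays.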

Additional observations from a re-analysis of the deposited data

Results flagged for a closer look

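Single arrays that stood far from the other 3 of their group were found in 9 of 181 groups of 4 (4.97%), and chance alone gives about 1 in 20. They were deficient array 4 for Rbbp9 (-1.94), Hba-a1 (2.87), the second J558 probe A_55_P1960148 (-1.92) and the Igh-VJ558 probe A_55_P2214124 (-5.63), deficient array 1 for Mpzl2 (2.18), deficient array 2 for Fcrl1 (0.86), wild-type array 1 for Rbbp9 (-6.06), wild-type array 2 for Aldh1a2 (-0.95) and wild-type array 5 for Tex12 (-3.59). Deficient array 4 thus accounts for 4 of the 9.

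Differences that differed between the slides by the test of the difference itself are given as slide 2 minus slide 1 (log2). Among red cell and other strongly raised genes they were 6.86 for Hbb-b1, 7.23 for Hbb-b2, 5.44 for Hba-a2, 5.40 for Hba-a1, 3.63 for Beta-s, 1.49 for Car2, 6.25 for Mpzl2, 3.11 for Mnda, 2.17 for Etohi1, 2.58 for Cd5l, 1.64 for Mtap7 and -3.69 for Sema5a. Among lowered genes they were -4.07 for Hspb2, -4.30 for D0H4S114, -2.35 for Olfm1, -4.78 for Aldh1a2 and -4.14 for Evc. In B cell and Fc receptor genes they were 2.72 for Fcgr2b, 2.40 for Fcrla, 2.39 for Fcgr3, 1.42 for Fcrl1, 1.92 for Fcer2a, 1.30 for Plac8, 0.54 for Bank1, 0.71 for Foxp1, 1.85 for Nr4a2, -1.0 for Rasgrp3 and -1.63 for Tcf7. Plasma cell and neighbouring genes gave -4.13 for Tnfrsf17, -2.12 for Sdc1, -1.77 for Prdm1, -1.40 for Iglv1 and -1.26 for Adssl1. Heavy chain probes gave 5.69 and 4.46 for gamma 1, 1.39 for gamma 3, 1.60 for delta, -1.41 for mu and -4.84 for the undescribed probe A_55_P1960152. Of the genes in this paragraph Hbb-b1, Hbb-b2, Etohi1, Cd5l, Sema5a, Hspb2, D0H4S114 and Tnfrsf17 were not well above background on any slide 2 array of 1 genotype, nor was Mpzl2 on any slide 1 array, so their values rest partly on background signal.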

How the results depend on the processing

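Leaving out 1 array at a time gave 720 to 1960 higher and 940 to 1519 lower genes, 2453 to 3646 genes that differed between slides, and 10 to 23 higher interferon genes. The higher count was 2920 with scaling by the median, 2923 with array weights (5945 for the slides), 799 without the filter on dim probes (2287 for the slides and 12 interferon genes), and 1007 higher with 964 lower in a fit of all 16 arrays. Quantile normalization gave 2265 genes that differed between slides. With the replicate number as a block, 584 genes were higher and 851 lower, and 16 of 69 called named genes missed the threshold. The labels do not say whether equal numbers pair the samples. After removal of group means, arrays 1, 2 and 3 of both genotypes correlated at 0.016, 0.165 and 0.099. Pairs with different numbers ranged from -0.232 to 0.202, so these correlations cannot decide on pairing. No paired analysis of the slide comparison was possible because the genotypes share no numbers on slide 1. Constant region probes that fell numbered 12 under every alternative except the filter to all 8 arrays (10), and variable segment probes 72 to 86. Of the 69 called named genes 36 kept the call under every alternative that gave them a value, and 21 lost it without some 1 array. A gene that a filter removed, such as Hspb2 under the filter to all 8 arrays, has no value there and was not counted as lost. Signs turned for genes that had not passed: Kdm5d stood at 0.302 with dim values at their floor, and without deficient arrays 1 and 4 Igkc stood at 0.0107, Uty at 0.00617, Eif2s3y at 0.258, Ddx3y at 0.228 and Kdm5d at 0.849. Deficient arrays 1 and 4 were the ones dim for the Y-linked genes, and no cause was tested. Probes near background limit the folds, which are then lower bounds.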

Other observations

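Regions outside the antibody loci held dense calls on slide 2, beside 7.10% of all genes higher and 7.00% lower, and were picked after their values were seen. On distal chromosome 2 (mm9, 175000001 to 180000000), where KRAB zinc finger genes cluster, 29 of 60 genes rose and 1 fell. These are names on the array, and some of those that rose are coordinate intervals or transcript accessions, so the count is not one of zinc finger genes. The median of the 29 was 1.11 with a range from 0.39 to 4.71, led by Etohi1, and their median on slide 1 was 0.95, with 2 of 29 differing between slides. Of the 29 probes 12 share a run of 25 or more bases with another probe among them, so they are not independent measures.

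On proximal chromosome 14 (mm9, 5000001 to 10000000), 11 of 28 genes fell and 1 rose, some of them entries with only a probe name. The median of the 11 was -1.50, with Gm3727 at -1.67, Gm5797 at -1.65 and Pxk, a phox domain kinase-like gene, at -0.34. On slide 1 the same 11 genes had a median of -0.12, and 7 of them differed between slides. On chromosome 17 (mm9, 50000001 to 55000000), 6 of 20 genes rose and 3 fell.

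Some smaller groups had members of opposite direction on slide 2. Of 19 germinal centre genes, 1 rose and 3 fell (5.26% and 15.8%, beside 7.10% and 7.00% of all genes). Nt5e, the ecto-nucleotidase CD73, rose by 2.36, while Neil1, a DNA glycosylase, fell by 0.90 and S1pr2, a sphingosine phosphate receptor, by 0.67. Of 35 class switch and repair genes, 4 rose and 3 fell (11.4% and 8.57%, near the shares of all genes). Among them Atm, the kinase that signals DNA breaks, rose by 1.08, and Lig4, the ligase of end joining, fell by 0.55. Oxidative phosphorylation genes had 50 of 53 differences above 0 with a median of 0.13, and 5 rose (9.43%, near the 7.10% of all genes). That count was 13 with scaling by the median and 0 with quantile normalization, and 1 to 13 without any 1 array.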
